A study of Mus musculus with 6 samples.

Results

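Cathepsins are the main proteases of the lysosome, and cystatins are the inhibitors that bind and block those of the cysteine class. The 10 genes described here were followed in RAW264.7 macrophages treated with SKI-II, comprising 8 cathepsins (Ctsa, Ctsb, Ctsc, Ctsd, Ctsh, Ctsl, Ctss and Ctsz), the asparaginyl endopeptidase legumain (Lgmn) and 1 inhibitor, cystatin C (Cst3). They were chosen by gene symbol, and all 10 were found once each among the 49315 genes of the count table. Reads were sufficient for a test in 9 of them, Ctsh being the exception.

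RAW264.7 is a mouse macrophage line, and every library came from this 1 line with a wild-type genotype. SKI-II, a small molecule first known as a sphingosine kinase inhibitor, was given at 4 μg/mL for 24 h, and control cells received the vehicle DMSO. Each condition had 3 RNA-seq libraries, and the labels do not say whether these came from separate cultures. The study treated cells for RNA-seq as for its qPCR, for which it states 3 biological replicates per condition. Whether that holds for each library is not stated, so p-values measure the spread between these samples, which may be technical. The libraries held 12495957 to 20050677 counted reads. Levels are given as CPM, read counts scaled to a common library total with TMM factors, which correct for differences in library composition, and errors are the SD over 3 libraries. The groups were tested in edgeR by quasi-likelihood, with p-values adjusted by Benjamini-Hochberg over the 12274 genes with enough reads, and a gene was called at an adjusted p below 0.05. Of 9 macrophage markers, 9 had enough reads for the test, while none of the 5 T cell, 5 B cell, 5 fibroblast and 4 epithelial markers did, and all 4 epithelial markers were at 0. Of the 5 neutrophil markers, S100a8 had enough reads (not called) and Ly6g was at 0. The macrophage markers moved both ways: Lyz2, Adgre1 and Itgam were lower, Cd14 and Fcgr1 were higher, and Ptprc, Csf1r, Cd68 and Mertk were not called. Their summed level was 8586 to 12645 CPM with DMSO and 5448 to 7802 CPM with SKI-II. Lyz2 was the largest part of it, with means of 6845 and 2864 CPM. Cd14 came next with SKI-II, at a mean of 1273 CPM. The part of these markers in the values below was not tested. In bulk RNA, fewer cells of a kind and less RNA per cell cannot be told apart.

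Most cathepsins are made as inactive precursors in the endoplasmic reticulum, tagged with mannose 6-phosphate in the Golgi, carried to the lysosome by receptors for that tag and activated there by cleavage. The members fall into 3 catalytic classes. Ctsb, Ctsc, Ctsh, Ctsl, Ctss and Ctsz are cysteine proteases of the papain type, and Lgmn is a cysteine protease of another fold that cuts after asparagine and helps to process other cathepsins. Ctsd is an aspartic protease, and Ctsa is a serine carboxypeptidase that also holds 2 lysosomal glycosidases in a protective complex. Macrophages are rich in these enzymes, which degrade engulfed bacteria and proteins and prepare peptides for presentation.

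With SKI-II the members moved in opposite directions. Cst3, the inhibitor, fell (log2 fold change -1.77), as did Lgmn (-1.39), Ctsb (-0.87) and Ctss (-0.62), while Ctsd rose (0.90). Ctsa, Ctsc, Ctsl and Ctsz had values below 0 that did not pass the test. Thus 4 of 9 tested members were lower and 1 was higher, beside 19.7% of all tested genes lower and 18.4% higher, or 38% called in either direction. Cst3 and Lgmn were lower past a log2 fold change of -1, as were 7.44% of all tested genes, and none was higher past 1, as were 8.28%. The median log2 fold change of the 9 members was -0.42 against 0.00 over all tested genes. In 7 of 9 members the 3 SKI-II libraries lay wholly on one side of the 3 DMSO libraries, the exceptions being Ctsl and Ctsz, and the same held for 50.3% of all tested genes.

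**Figure D1:**
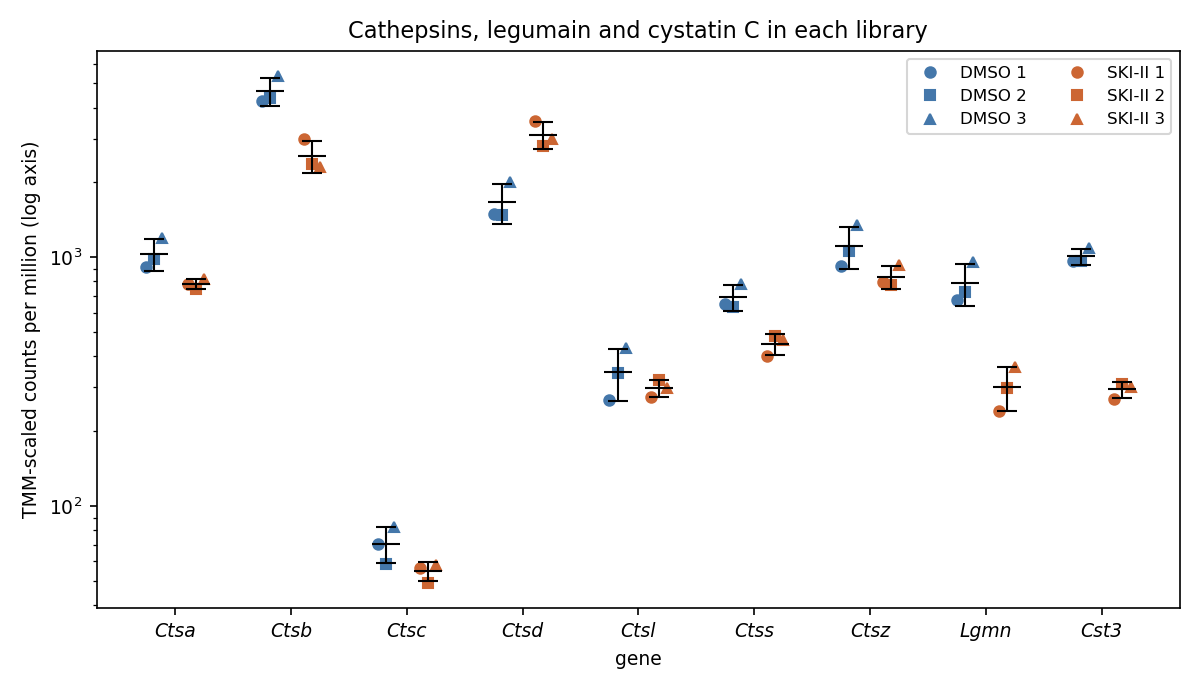
TMM-scaled CPM on a log axis for the 9 tested members, with 1 point per library (circle, square and triangle for replicates 1, 2 and 3), blue for DMSO and orange for SKI-II, and black bars for the mean and SD of 3 libraries. Ctsd is the member with all SKI-II points above all DMSO points, and DMSO replicate 3 is the highest DMSO point of every gene.

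Cystatin C, the secreted inhibitor of papain-type cathepsins, lay on chromosome 2 (148871722 to 148875692, minus strand, positions here and below from the GENCODE M21 annotation of GRCm38). Cst3 stood at 966.3, 966.4 and 1092 CPM in DMSO replicates 1, 2 and 3 and at 270.5, 311 and 303 CPM in SKI-II replicates 1, 2 and 3. The highest SKI-II library was thus far under the lowest DMSO library, and the libraries of each group lay close together. The mean went from 1008 ± 72.8 to 295 ± 21.4 CPM (SD, n = 3), 3.42-fold lower (log2 fold change -1.77, standard error 0.13, adjusted p = 1.70e-05 in edgeR's test). Of all tested genes, 2.66% had a log2 fold change as low or lower. With any 1 library left out the value stayed between -1.82 and -1.72, the narrowest such range among the 9 members.

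Legumain (chromosome 12, 102394084 to 102439813, minus strand) showed the next largest fall. Lgmn was at 674, 729 and 957 CPM with DMSO and at 241, 299.96 and 362 CPM with SKI-II. The groups were apart, but each spread more than that of Cst3, with a coefficient of variation of 19.1% in DMSO and 20.03% in SKI-II against 7.22% and 7.25%, respectively. The mean fell from 786 ± 150.2 to 301 ± 60.3 CPM (SD, n = 3), 2.61-fold lower (log2 fold change -1.39, standard error 0.19, adjusted p = 0.000440 in edgeR's test). When edgeR's glmTreat asked whether the change itself exceeded 1, rather than 0, 1 of the 2 members Cst3 and Lgmn passed. The 95% interval of Cst3 (-2.07 to -1.48) lay wholly past -1, while that of Lgmn (-1.80 to -0.97) reached across it.

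Cathepsin B (chromosome 14, 63122462 to 63145923, plus strand), which acts both as an endopeptidase and as a carboxypeptidase, had more counts than any other member with DMSO. Ctsb reached 4264, 4369 and 5353 CPM with DMSO and 2993, 2369.7 and 2304 CPM with SKI-II. All SKI-II libraries were lower, SKI-II replicate 1 being nearest to the controls. The mean went from 4662 ± 601 to 2556 ± 380.04 CPM (SD, n = 3), 1.82-fold lower (log2 fold change -0.87, standard error 0.18, adjusted p = 0.00464 in edgeR's test). Its exons share 774 bases with Fdft1 on the other strand, and since the strand setting of the counting is not given in the sources used here, reads there are uncertain. Fdft1 had 6795 counts over the 6 libraries, while Ctsb had 212627 in the 3 DMSO libraries alone.

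Cathepsin S (chromosome 3, 95526786 to 95556403, plus strand) is the protease of antigen-presenting cells that trims the invariant chain from MHC class II. Ctss was at 651, 633 and 785 CPM with DMSO and at 401, 484 and 464 CPM with SKI-II, again with no overlap. The mean fell from 689.9 ± 82.8 to 449.8 ± 43.5 CPM (SD, n = 3), 1.53-fold lower (log2 fold change -0.62, standard error 0.14, adjusted p = 0.00760 in edgeR's test).

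Cathepsin D (chromosome 7, 142375911 to 142388038, minus strand), the aspartic endopeptidase, was the 1 member that rose. Ctsd was at 1500.45, 1484 and 2011 CPM with DMSO and at 3532, 2799.7 and 2984 CPM with SKI-II. The lowest SKI-II library was above the highest DMSO library, with DMSO replicate 3 lying nearest. Its mean rose from 1665 ± 299.7 to 3105 ± 381 CPM (SD, n = 3), 1.86-fold higher (log2 fold change 0.90, standard error 0.18, adjusted p = 0.00383 in edgeR's test). Without DMSO replicate 3 the log2 fold change was 1.05, past the threshold of 1 used by the study. With any other library left out it stayed below 1, and it was lowest, 0.79, without SKI-II replicate 1. A value as high or higher was found in 10.9% of all tested genes. Its exons share 808 bases with Gm49369 on the same strand, a gene with 3 counts over all libraries.

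**Figure D2:**
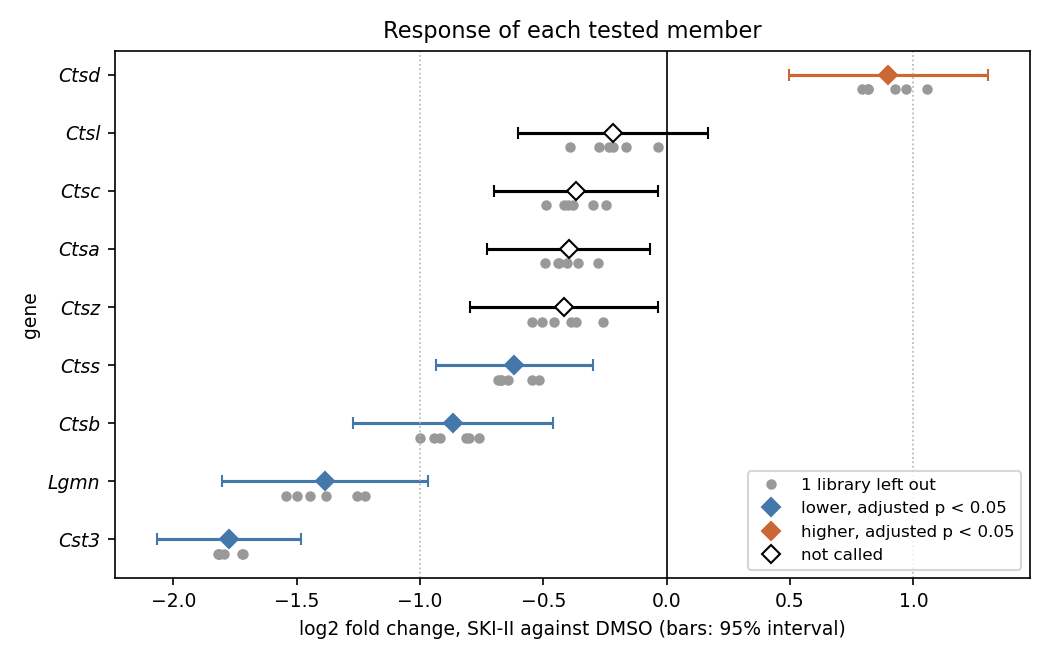
Log2 fold change of each tested member, SKI-II against DMSO, as diamonds with 95% intervals (orange higher, blue lower, white not called at an adjusted p below 0.05), and grey points for the 6 fits that each leave out 1 library. Cst3 (-1.77) and Lgmn (-1.39) lie past the dotted line at -1, and Ctsd (0.90) lies apart from all others to the right of 0.

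The other 4 tested members had smaller differences. Ctsa (chromosome 2, 164832873 to 164841032, plus strand), the carboxypeptidase of the glycosidase complex, was at 912, 983 and 1199.9 CPM with DMSO and 784, 744 and 822 CPM with SKI-II. The groups did not overlap, yet the difference missed the threshold (log2 fold change -0.40, 95% interval -0.73 to -0.07, adjusted p = 0.0590 in edgeR's test). It passed in DESeq2, the tool the study used, with an adjusted p of 0.0340. Over all alternatives the adjusted p of Ctsa lay between 0.0181 and 0.184. Its exons overlap those of Neurl2 and Pltp on the other strand by 324 and 495 bases, so some of its reads are uncertain. Ctsc (chromosome 7, 88278085 to 88310888, plus strand), the dipeptidyl peptidase that activates granule serine proteases, was the tested member with the lowest level. Its libraries held 70.7, 58.8 and 82.3 CPM with DMSO and 56.7, 49.4 and 58.1 CPM with SKI-II (log2 fold change -0.37, 95% interval -0.70 to -0.04, adjusted p = 0.0762). The lowest DMSO and the highest SKI-II library of Ctsc were next to each other.

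Ctsz (chromosome 2, 174427493 to 174439039, minus strand), a carboxypeptidase, was at 927, 1064 and 1349 CPM with DMSO and 793, 777 and 933 CPM with SKI-II. SKI-II replicate 3 lay above DMSO replicate 1, so the groups overlapped (log2 fold change -0.42, 95% interval -0.80 to -0.04, adjusted p = 0.0799 in edgeR's test). Without DMSO replicate 1 both Ctsa and Ctsz were called, with log2 fold changes of -0.49 and -0.55 and adjusted p of 0.0318 and 0.0285. Ctsl (chromosome 13, 64359337 to 64370890, minus strand), the endopeptidase cathepsin L, ranged from 266 to 431 CPM with DMSO and from 275 to 323 CPM with SKI-II. The 3 SKI-II libraries lay inside the range of the DMSO libraries (log2 fold change -0.22, 95% interval -0.60 to 0.17, adjusted p = 0.355 in edgeR's test). The log2 fold change of Ctsl was -0.03 without DMSO replicate 3 and -0.39 without DMSO replicate 1. An antisense gene, Gm47123, shares 1742 exon bases with Ctsl and is not among the counted genes. Because the strand setting is not given, reads there are uncertain. A processed pseudogene on the same strand, Gm49230, shares 395 exon bases with Ctsl and is not among the counted genes either. Missing the threshold does not show that these 4 genes kept their level, since their intervals reach down to log2 fold changes between -0.60 and -0.80.

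Ctsh, an aminopeptidase of the papain group on chromosome 9 (90054152 to 90076089), had almost no reads. Its counts were 2, 2 and 4 with DMSO and 0, 1 and 2 with SKI-II. Scaled by library size, its total with SKI-II was 0.335 of that with DMSO (exact 95% interval 0.0572 to 1.40, covering counting error only), so no difference was detectable at this depth.

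DMSO replicate 3 held the highest DMSO level of all 9 tested members, while it was the highest DMSO library for 42.0% of all tested genes. Leaving it out moved the log2 fold change of the falling members toward 0, to -1.22 for Lgmn, -0.76 for Ctsb and -1.72 for Cst3, and moved that of Ctsd up. The 5 calls held without this library, and the largest of their adjusted p was 0.0204, for Ctss.

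Because a long transcript gathers more reads, levels were compared between genes as CPM per kilobase of exon. With DMSO the ranges of the 4 leading members overlapped, those of Cst3 (763 to 863 CPM per kilobase), Ctsz (643 to 936), Ctsb (705 to 885) and Ctsd (631 to 856), although within each DMSO library Ctsd was the lowest of them. Ctss (466 to 578) came next and Lgmn (290.04 to 412) followed, without overlap with its neighbours above or Ctsa (193 to 254) below. Ctsl (41.0 to 66.4) and Ctsc (10.1 to 14.2) were far lower. With SKI-II no 2 neighbours in the order overlapped. Ctsd led at 1191 to 1502 CPM per kilobase, before Ctsz (539 to 647), Ctsb (381 to 495), Ctss (295 to 357), Cst3 (214 to 246), Ctsa (158 to 174), Lgmn (104 to 156), Ctsl (42.3 to 49.7) and Ctsc (8.50 to 10.003). Cst3 thus went from the leading 4 to below Ctsz and Ctsb, and Ctsd to the 1st place. The exact places of Ctsb, Ctsd and Ctsz with DMSO, and whether Ctss or Cst3 is the higher with SKI-II, depend on which transcript length is used.

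Expressed as shares of the summed CPM per kilobase of all 10 genes, Ctsd made up 16.9% ± 0.715 with DMSO and 40.7% ± 3.25 with SKI-II (SD, n = 3). The share of Cst3 went from 19.2% ± 1.30 to 7.22% ± 0.844, and that of Ctsb from 18.5% ± 0.264 to 13.02% ± 1.505. Ctsz made up 18.4% ± 1.16 and 17.9% ± 1.79, a difference smaller than either SD. These shares depend on one another, so they describe the make-up of the pool and carry no test.

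The balance of protease and inhibitor mRNA was described per library from CPM that were not divided by length. The 9 proteases together were at 9265, 9666 and 12168 CPM with DMSO and at 9075, 7847 and 8225 CPM with SKI-II. Their sum over the level of Cst3 was 9.59, 10.002 and 11.1 with DMSO and 33.6, 25.2 and 27.2 with SKI-II. For the 7 cysteine proteases alone, the class that cystatin C binds, the ratio was 7.09, 7.45 and 8.20 with DMSO and 17.6, 13.8 and 14.6 with SKI-II. None of these 7 was called higher, while Cst3, the divisor, was lower. Adding the cytosolic inhibitor Cstb to Cst3 made the gap smaller, with 6.02 to 6.87 in DMSO and 8.10 to 9.05 in SKI-II. The ratio of Ctsb to Ctsd, was 2.66 to 2.94 with DMSO and 0.772 to 0.847 with SKI-II. These ratios combine genes whose values were already known, so no test was made of them.

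Short stretches upstream of the gene starts were searched for motifs, as the MiT/TFE factors bind E-box motifs at many lysosomal genes. RefSeq promoters (GRCm38.p6) matched 8 of the 10 members, in 10 windows of 250 bases before an annotated start. The motifs, read on both strands, were CACGTG, the E-box core, TCACGTGA, a longer form that contains it, TGACNNNGC, the core of the antioxidant response element that Nrf2 binds, and CCAAT. Of 32851 promoters, 6.02% held CACGTG, 0.785% TCACGTGA, 10.2% TGACNNNGC and 33.8% CCAAT. Ctsd, the member that rose, held CACGTG 2 times, once as TCACGTGA at 92 to 99 bases before the start, and TGACNNNGC 2 times. Ctsa held TCACGTGA in 1 of its 2 windows, and Ctsl held CACGTG once. Lgmn held CACGTG in 1 of its 2 windows and CCAAT in the other. Ctsz held TGACNNNGC once and CCAAT once. The windows of Cst3, Ctss and Ctsc held none of these letters. The matches to CACGTG and TGACNNNGC are shown with their flanks, 5′ to 3′ on the strand of the gene with the motif in capitals, so that the stretches of Ctsd can be set beside those of members that did not rise.
Ctsd chr7:142388048-142388077: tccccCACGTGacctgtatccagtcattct
Ctsd chr7:142387908-142387937: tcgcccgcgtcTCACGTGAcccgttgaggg
Ctsd chr7:142387864-142387891: gcTGACTCCGCgggactGCGGCGTCAtc
Ctsa chr2:164833743-164833772: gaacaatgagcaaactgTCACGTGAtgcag
Lgmn chr12:102439124-102439153: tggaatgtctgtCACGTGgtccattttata
Ctsl chr13:64370739-64370768: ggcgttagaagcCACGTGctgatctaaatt
Ctsz chr2:174439153-174439182: aatggctggtgGCACTGTCAggtctggggt

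A CACGTG core was thus present in windows of Ctsd, which rose, of Lgmn, which fell, and of Ctsa and Ctsl, which were not called. A match is a description of the letters and not a bound site, and the start used in these cells was not measured. GENCODE exons cover 211 of the 250 bases of the Ctsd window, 164 of the Ctsa window with TCACGTGA, 125 of that of Cst3, 85 of the Lgmn window with CCAAT and 48 of that of Ctsl.

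The remaining genes of the pathway were taken from lists of related genes. Of 15 other cathepsins, 4 had enough reads, of which 1 was higher and 2 were lower (median log2 fold change -0.65), beside 18.4% and 19.7% of all tested genes. Ctsf, a papain-type protease, was at 21.2, 22.3 and 28.3 CPM with DMSO and 6.00, 6.60 and 8.38 CPM with SKI-II, with a log2 fold change of -1.77 ± 0.20 (standard error) and an adjusted p of 0.000140. Ctso, another of that type, went the other way, from 22.5, 19.9 and 28.6 CPM to 58.5, 48.7 and 50.7 CPM, with a log2 fold change of 1.15 ± 0.16 (standard error) and an adjusted p of 0.000527. Both were separated between the groups, at levels far under those of Ctsb or Ctsd. Ctsk, the bone-resorbing cathepsin of osteoclasts, fell from 4.58 ± 1.78 to 1.67 ± 0.661 CPM (SD, n = 3), a log2 fold change of -1.46 (adjusted p = 0.0210). That call was lost when either DMSO replicate 1 (adjusted p = 0.0530) or 2 (0.0764), or SKI-II replicate 1 (0.0523) or 3 (0.0531), was left out, which leaves 1 other cathepsin lower. The summed level of 6 osteoclast markers, Ctsk among them, was 61.2 to 82.3 CPM with DMSO and 33.9 to 41.5 CPM with SKI-II, with Calcr at 0, and its part in the result was not tested. Of the 4 of them with enough reads, Ctsk and Acp5 were lower and Dcstamp and Mmp9 were not called, and most of the sum came from Acp5 (means of 31.6 and 17.99 CPM) and Dcstamp (24.98 and 15.8 CPM). Of the other 11 cathepsins, 10 had no count, and Ctsw had 3 in all.

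Other inhibitors were sparse. Among 14 other cystatins and stefins, 2 had enough reads and 9 had no count at all. Cstb, the cytosolic inhibitor cystatin B, was at 172, 173 and 211 CPM with DMSO and at 255, 220.5 and 188 CPM with SKI-II. These ranges overlapped (log2 fold change 0.26, 95% interval -0.07 to 0.58, adjusted p = 0.197 in edgeR's test). The ratio of Cst3 to Cstb was 5.17 to 5.62 with DMSO and 1.06 to 1.61 with SKI-II. Cst7, or cystatin F, an inhibitor of leukocytes, fell from 17.98, 20.7 and 22.2 CPM to 2.23, 5.71 and 9.34 CPM (log2 fold change -1.79 ± 0.38, standard error, adjusted p = 0.00503). Of 4 serpins that can block cathepsins, Serpinb6a was higher by 1.015 (adjusted p = 0.00116) and Serpinb1a, at 10.9 ± 4.83 CPM with DMSO, was lower by 1.54 on the log2 scale (adjusted p = 0.0177). The call of Serpinb1a was lost without DMSO replicate 1 (adjusted p = 0.0533) or SKI-II replicate 1 (adjusted p = 0.0775), and the other 2 serpins had no count.

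Genes that tag and carry cathepsins to the lysosome were a list of 12, all tested, with 6 lower and 0 higher (median log2 fold change -0.38). For comparison, 19.7% of all tested genes were lower and 18.4% were higher. At an unadjusted p below 0.05 no gene of this list was higher either, and DESeq2 and limma-voom called none higher. Igf2r, the large mannose 6-phosphate receptor, fell from 593, 499 and 432 CPM to 190, 161 and 126 CPM, with a log2 fold change of -1.68 ± 0.18 (standard error) and an adjusted p of 0.000103. Sort1, which encodes the sorting receptor sortilin, fell by 1.02 (adjusted p = 0.000141), and Gnptab, the enzyme that starts the tag, by 0.92 (adjusted p = 0.000417) on the log2 scale. Nagpa, which uncovers the tag, fell by 0.73 (adjusted p = 0.00238). M6pr, the small mannose 6-phosphate receptor, and Vps35 of the retromer were the other 2 genes called lower, with log2 fold changes of -0.57 and -0.47. The call of M6pr was lost without DMSO replicate 3 (adjusted p = 0.0506) or SKI-II replicate 1 (0.0508), and that of Vps35 without DMSO replicate 2 (0.0517) or SKI-II replicate 2 (0.0687).

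Of 8 partners and other soluble peptidases of the lysosome, 4 were lower and 1 was higher (median log2 fold change -0.42), beside 19.7% and 18.4% of all tested genes. Dpp7, a dipeptidyl peptidase, fell from 43.1, 46.2 and 47.7 CPM to 10.3, 9.70 and 8.79 CPM, with a log2 fold change of -2.25 ± 0.14 (standard error) and an adjusted p of 8.70e-06. Tpp1, a tripeptidyl peptidase, fell by 1.56 (adjusted p = 0.000121), and Prcp, a carboxypeptidase, by 1.12 (adjusted p = 0.000381) on the log2 scale. Scpep1, a serine carboxypeptidase related to Ctsa, rose from 379 ± 70.0 to 829 ± 95.9 CPM (SD, n = 3), a log2 fold change of 1.13 (adjusted p = 0.000698). Neu1 and Glb1, the partners of Ctsa in its complex, were not called. Psap, the precursor of the saposins, was also lower (log2 fold change -0.56, adjusted p = 0.0352), a call lost without DMSO replicate 2 (0.0822) or 3 (0.0946), or SKI-II replicate 2 (0.126) or 3 (0.1004).

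**Figure D3:**
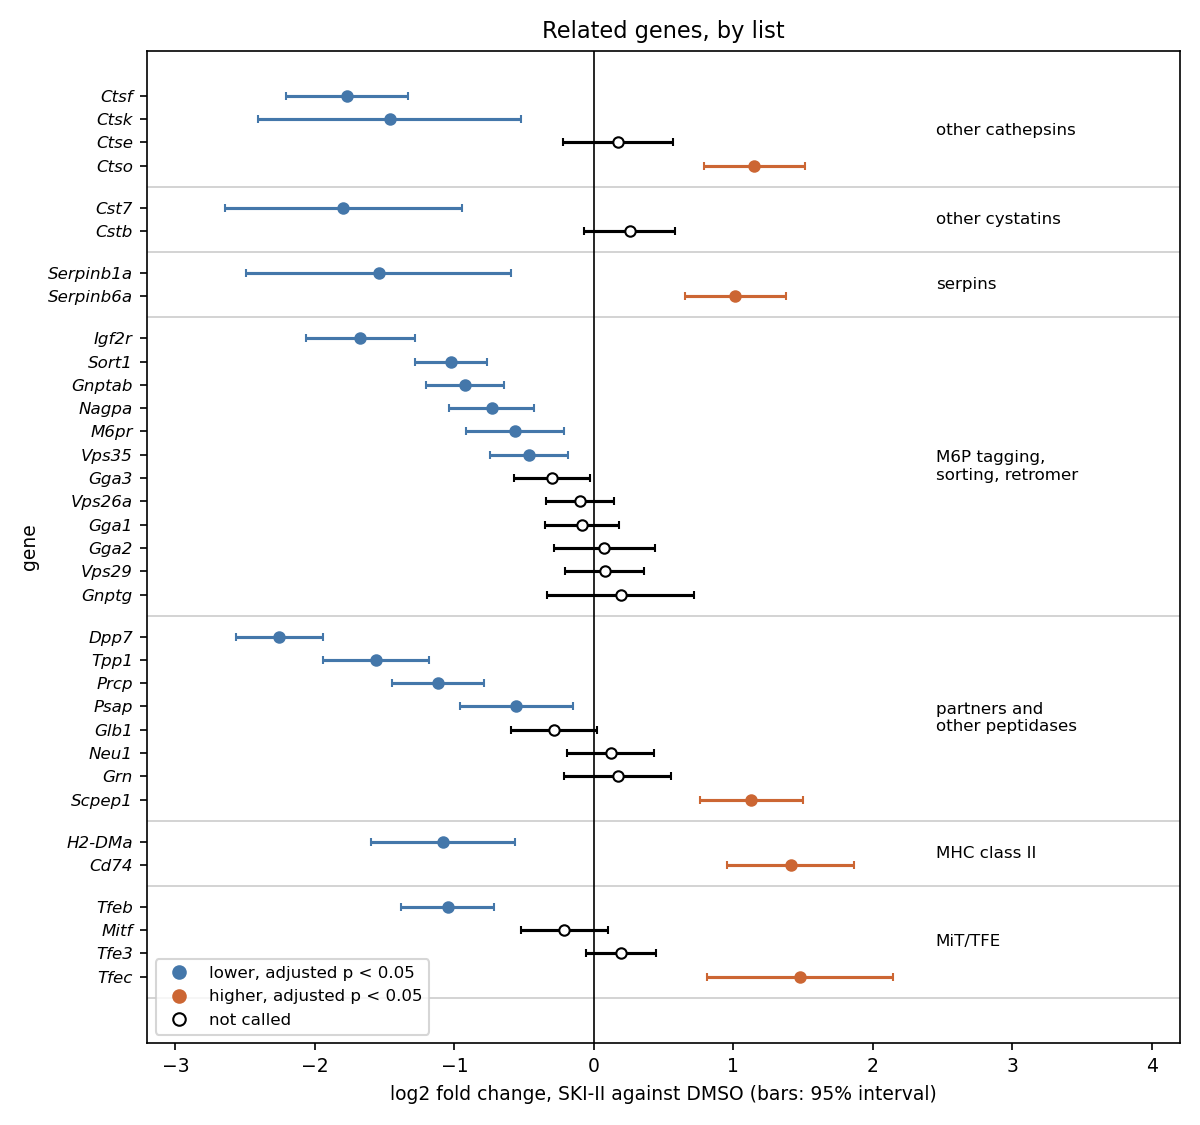
Log2 fold change, SKI-II against DMSO, with 95% intervals for the tested genes of 7 lists of related genes (orange higher, blue lower, white not called at an adjusted p below 0.05). The 6 called genes of the tagging and sorting list all lie left of 0, while the cathepsin, serpin and peptidase lists have calls on both sides.

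The invariant chain is the substrate that Ctss and Ctsl trim during the loading of MHC class II. Cd74, which encodes it, rose from 315, 361 and 535 CPM to 972, 1002 and 1246 CPM, with a log2 fold change of 1.41 ± 0.20 (standard error) and an adjusted p of 0.000684. H2-DMa, a subunit of the peptide-loading factor, fell by 1.08 on the log2 scale (adjusted p = 0.00508). The other 5 genes of that list had too few reads, with 22 counts over the 6 libraries at most, and Ciita, the master regulator of the class, was at 0 in every library. Among the 4 MiT/TFE factors, Tfeb fell from 34.1 ± 1.82 to 16.5 ± 1.98 CPM (SD, n = 3), a log2 fold change of -1.05 (adjusted p = 0.000541). Tfec rose from 2.09 ± 0.338 to 5.86 ± 1.53 CPM, a log2 fold change of 1.48 (adjusted p = 0.00375), and Tfe3 and Mitf were not called.

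Cst3 was compared with every other tested gene by the Pearson correlation of log2 CPM over the 6 libraries. The 5 nearest were Elovl5, Hnrnpa1, Depdc1a, Tubb5 and Gnpat, with coefficients of 0.998 to 0.999 and log2 fold changes of -2.58 to -0.73. All 5 share with Cst3 a low level in the 3 SKI-II libraries. Over all tested genes, 8.45% had a coefficient above 0.95.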

How the data were processed

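Poly(A) RNA of RAW264.7 cells was enriched with oligo(dT) beads and sequenced. Per the labels and the submitters' processing notes, the authors trimmed reads with Trimmomatic 0.36, mapped them with STAR 2.5.2b, counted them per Ensembl gene with featureCounts of Subread 1.5.2 and compared groups with DESeq2. The authors deposited raw counts, 1 column per library, and all columns were used. For genome build, annotation release and strand setting, nothing is given in the sources used here. Sample titles gave the group and the replicate number. Total counts per library were 12495957 to 20050677. No pair of libraries in a group differed by as little as sampling noise (chi-square per degree of freedom 15.4 to 58.1 over genes with at least 20 counts).

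Symbols, positions and exon lengths came from GENCODE M21 (GRCm38), which may differ from the authors' annotation. Counts were tested with edgeR 4.0.16 in R 4.3.3 (quasi-likelihood F test, TMM factors, filter by expression at 10 counts per library and 15 in total, Benjamini-Hochberg adjustment over 12274 genes). The common coefficient of variation between libraries was 17.5%. Standard errors were computed from the fitted weights and the moderated dispersion. Alternatives were DESeq2 1.42.0, limma-voom (limma 3.58.1), RLE scaling, library size alone, 2 other filters, each library left out, the replicate number as a block and glmTreat. In simulated counts, edgeR recovered 99.5% of 200 genes changed by 2 on the log2 scale, with 9 false calls. That simulation used 1 dispersion for all genes and held no smaller changes, such as those of the members. Correlations used log2(CPM + 0.5). Promoters came from RefSeq (GRCm38.p6). The named genes are the 10 members, in each list up to 4 called genes with the largest change, and the 5 genes nearest to the member with the largest change. Genes beyond these were chosen after their values were seen. The members and lists were chosen with earlier results of these data known. Member proteins were not analysed here. Figures were drawn with matplotlib 3.10.9.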

Additional observations from a re-analysis of the deposited data

How the results depend on the processing

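Each of the 9 tested members kept its direction under all 13 alternatives, and the calls of Cst3, Lgmn, Ctsb, Ctss and Ctsd held in every one of them. Ctsa was called with DESeq2 (log2 fold change -0.39), with library size alone (-0.39) and with the replicate block (-0.39). Ctsz was called with library size alone (-0.41) and the replicate block (-0.40), and Ctsc with the replicate block (-0.36), so that 7 members were lower under the block instead of 4, while over all tested genes the block raised the lower calls from 2413 to 2819. Whether the same replicate number marked paired libraries could not be decided. The deviations from the group means correlated by 0.246, 0.00994 and 0.458 for numbers 1, 2 and 3. The value for number 3 was the highest of any DMSO and SKI-II pair, but DMSO replicate 1 correlated best with SKI-II replicate 2 (0.296). With 1 library left out, the log2 fold change ranged from -0.49 to -0.28 for Ctsa, from -0.49 to -0.25 for Ctsc and from -0.55 to -0.26 for Ctsz, and 4 to 6 members were lower. In these fits 0 or 1 member was higher past 1 and 2 or 3 were lower past -1 (3 without SKI-II replicate 1, where Ctsb was at -1.001), and under glmTreat 1 member was lower past -1. Among the other cathepsins 1 or 2 were lower and among the serpins 0 or 1, and with no filter 1 other cystatin was higher. By the longest transcript in place of all exons, Ctsb, Ctsd and Ctsz took places 2, 3 and 4 with DMSO, and Ctss and Cst3 places 5 and 4 with SKI-II. The scaling alternatives moved the median over all genes by 0.00765 at most on the log2 scale. With library size alone the summed protease level moved by less than the spread between libraries.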
